A study of Mus musculus with 40 samples.

Results

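The duodenum of mice that underwent small bowel resection (SBR) and then received WUSTL0717, an agonist of the liver X receptors (LXRs) that acts mainly in the gut, was compared with the duodenum of sham-operated mice given vehicle. Each difference therefore combines surgery and drug. The libraries were chosen by their titles, 4 treated and 3 sham, which made 7 of the 40 RNA sequencing libraries of the series. Of the 15958 genes in the table, 15093 had a mean of at least 1 log2 TPM over the 11 duodenal libraries and were tested. TPM is a level corrected for transcript length and library size. The other 4 duodenal libraries came from resected mice given vehicle. They entered the fit for the spread, and they divide each difference into a resection step (vehicle after SBR minus sham) and a drug step (WUSTL0717 minus vehicle after SBR).

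All mice were wild-type C57BL/6 males, 8 weeks old at surgery. By the labels, SBR removed 50 to 60% of the small bowel, and the duodenum was kept in place, while sham mice had the bowel cut and rejoined. The methods of the study give a larger resected share than the labels. Starting 3 weeks after surgery, WUSTL0717 was given by mouth once a day at 30 mg/kg for 7 weeks, and the controls received vehicle over the same time. No sham mouse received the drug, so these values hold no effect of WUSTL0717 without resection. The labels number the libraries within a group without naming the mouse behind each, so the p-values measure the spread among these libraries.

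LXRs are nuclear receptors that sense oxidized sterols and, paired with retinoid X receptors, switch on genes of sterol export and of fatty acid synthesis. In enterocytes the best known of their targets are the lipid exporters of the ABC family and Srebf1, whose product in turn drives lipogenic enzymes such as Scd1. The upper small intestine also oxidizes dietary fat under the control of peroxisome proliferator-activated receptors (PPARs), packages fat into chylomicrons, and modifies foreign compounds with cytochrome P450, carboxylesterase and conjugating enzymes.

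The duodenal identity of the libraries was checked first. Pdx1 and Gata4, transcription factors of the upper gut, lay between 3.89 and 4.81 and between 5.74 and 6.28 log2 TPM in the 11 libraries, whereas the ileal bile acid genes Slc10a2 and Fabp6 did not exceed 0.95 in any of them. The libraries differed in a stomach signature. Gkn2, a gastrokine of the gastric surface, was 9.15, 9.87 and 9.64 in the sham libraries and 8.55 in treated library 1, but was listed at 0 in treated libraries 2, 3 and 4. Among vehicle libraries after SBR, Gkn2 was 9.17 and 9.46 in libraries 1 and 2 and was listed at 0 in libraries 3 and 4. Gkn1 and Tff1 split the libraries in the same way, but Tff2, a peptide of stomach and Brunner gland, was still 6.18 in vehicle library 4 and 3.67, 6.25 and 5.21 in treated libraries 2, 3 and 4, against 8.17 to 9.30 in sham. All 7 tested members of a stomach and Brunner gland list had negative differences, with a median of -2.97. limma called none of them, 5 had an unadjusted p under 0.05, all lower, and library weights gave 4 calls, all lower. The pancreatic enzyme Prss2 ranged from 3.60 to 7.71 in sham and from 4.78 to 8.02 in treated libraries, and the 19 tested pancreas genes had a median difference of 0.43, with a median resection step of -1.59 and a median drug step of 2.03. The pancreas median turned with single libraries, from -0.66 without sham library 3 to 1.23 without sham library 1, and it was also below 0 without treated library 4. In treated against sham limma called none of them, none had an unadjusted p under 0.05, and library weights gave no call. The part of these pancreas genes in the drug step was not tested. Summed TPM over the table, taking 1 as the deposited pseudocount, was 637587 to 722909 in sham and 727886 to 863110 in treated libraries, without overlap, and its part in the results was not tested. The stomach signature also moved with the groups, and its part in the results was not tested apart from the values given beside them.

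Between treated resected duodenum and sham, limma with Benjamini-Hochberg adjustment called 121 genes at an adjusted p under 0.05 (0.802% of those tested), of which 113 were higher (0.749%) and 8 were lower (0.0530%) than in sham. In all 121, the treated and sham libraries did not overlap, which was so for 18.4% of all tested genes (5.58% higher and 12.8% lower). Of the 121 genes, 50 belonged to any of the 49 gene lists examined, and 15 of the lists held a call. Not every list is described here, and the share of all tested genes that belong to a list was not computed. The higher genes differed by a median of 2.64 on the log2 scale (range 1.35 to 6.38), whereas the median over all tested genes was -0.32. Among genes with an unadjusted p under 0.05, 747 were higher and 1811 were lower (4.95% and 12.0%), so that the lower side was the more populated one before adjustment. In bulk tissue, fewer cells of a type and less RNA per cell cannot be told apart. The counts moved with the processing: centring each library on its median gave 364 higher and 29 lower genes, quantile normalization gave 203 and 45, library weights gave 364 and 760, which turns the balance of directions (the median of all genes became 0.05 and -0.045 with centring and quantile normalization), and leaving out treated library 1, the one treated library with high Gkn1, Gkn2 and Tff1, gave 76 and 8. Without sham library 1 the counts were 21 and 3, without sham library 3 they were 22 and 0, and without sham library 2 or treated library 4 they were 74 and 0 or 54 and 0. With the mean of Gkn1, Gkn2 and Tff1 in the model, a setting chosen after seeing the data, limma called no gene, and 684 higher and 369 lower genes had an unadjusted p under 0.05.

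**Figure D1:**
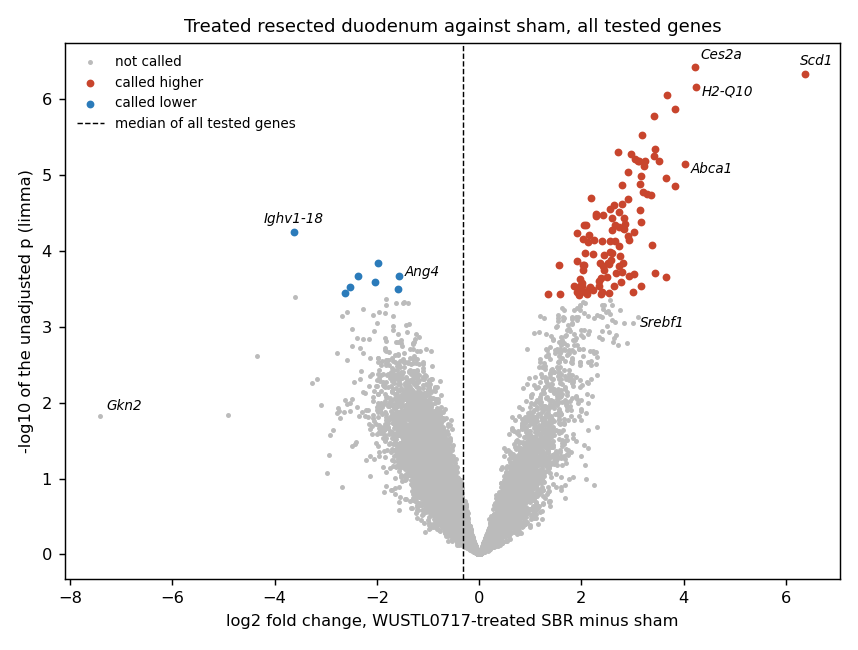
Each point is 1 of the 15093 tested genes, with the log2 fold change of WUSTL0717-treated SBR minus sham duodenum on the x axis and -log10 of the unadjusted limma p on the y axis. The 113 genes called higher (red) reach a log2 fold change of 6.38 at Scd1, the 8 called lower (blue) include Ighv1-18, and the dashed line marks the median of all genes at -0.32.

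The exporter Abca1, which loads cholesterol and phospholipid onto apolipoprotein A-I, was among the genes with the largest increase. Its promoter and that of Srebf1, the gene of the lipogenic regulator SREBP1, are shown because they carry the sequence to which LXR and its partner are known to bind, a pair of short repeats that lie 4 bases apart. The search used the letters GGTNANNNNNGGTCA on both strands of windows from 250 bases before to 50 bases after each start site (RefSeq, GRCm38.p6). It matched 68 of 32851 windows (0.207%), 15 of the 9388 tested genes with a window, and 2 of the 90 such genes called higher, Abca1 and Acsl3. Below are the 250 bases before the start site on the minus strand, with the match in capitals, for chr4:53159896-53160145 and for chr11:60210472-60210721, the latter 1 of 3 Srebf1 windows.
Abca1: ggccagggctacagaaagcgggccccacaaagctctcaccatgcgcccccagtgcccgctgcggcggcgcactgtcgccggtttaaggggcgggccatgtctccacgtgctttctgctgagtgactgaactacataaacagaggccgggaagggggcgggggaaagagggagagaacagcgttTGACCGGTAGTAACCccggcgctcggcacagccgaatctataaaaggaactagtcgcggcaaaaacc
Srebf1: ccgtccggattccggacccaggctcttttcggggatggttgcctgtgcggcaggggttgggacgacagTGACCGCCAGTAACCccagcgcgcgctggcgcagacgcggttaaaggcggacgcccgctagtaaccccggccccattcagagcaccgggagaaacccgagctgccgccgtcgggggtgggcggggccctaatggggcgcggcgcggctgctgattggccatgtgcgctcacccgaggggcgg
Both matches lie on the strand opposite to the one written, at 67 to 53 bases before the start site in Abca1 and at 182 to 168 in Srebf1. A match is a description of these letters and does not show that the receptor bound there.

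Abca1 (chr4:53030787-53159895, GRCm38) was 2.70, 2.35 and 2.57 log2 TPM in sham and 5.46, 7.23, 6.14 and 7.43 in treated libraries. Every treated library stood far above every sham library, and the means were 2.54 ± 0.17 (SD, n = 3) and 6.56 ± 0.93 (n = 4). The difference was 4.02 ± 0.54 (SE) on the log2 scale, a 16.3-fold rise (limma adjusted p = 0.00644). Only a small part of it was present in resected mice on vehicle, whose resection step was 0.47 against a drug step of 3.55. The 13 LXR sterol efflux genes had a median difference of 0.96, and 2 of them were called higher, none lower. The second was Lpcat3, which builds polyunsaturated chains into phospholipids and rose by 2.55 (adjusted p = 0.0472), but this call was lost when any 1 of the 11 libraries was left out (adjusted p from 0.0509 to 0.18). For Abcg1 and Abcg5, exporters of cellular and biliary or luminal sterol, treated values did not overlap with sham, and the differences were 1.39 ± 0.40 and 2.31 ± 0.66, with adjusted p = 0.156 and 0.158. Both passed with centred libraries (adjusted p = 0.0436 and 0.0367), and with the stomach genes in the model the differences were 0.85 and 1.38.

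Scd1, the stearoyl-CoA desaturase that makes monounsaturated fatty acids, showed the largest increase among the tested genes. Scd1 (chr19:44394455-44407879) was 6.15, 5.76 and 4.48 log2 TPM in sham and 11.42, 11.53, 11.58 and 12.83 in treated libraries. No treated library came near the sham range, and the rise was 6.38 ± 0.66, or 83.2-fold (adjusted p = 0.00339). In vehicle libraries after SBR the values were 6.73, 5.28, 4.02 and 5.96, within or close to the sham range, so that the drug step was 6.34 and the resection step 0.04. Of 19 tested genes of SREBP1 and fatty acid synthesis, 2 were called higher and none lower, with a median of 0.19. That median depended on single libraries, from 0.008 without treated library 4 to 0.30 without treated library 3, and 1 (without sham library 1 or 3) to 3 members were called. The other gene called was Me1, the malic enzyme that supplies NADPH for lipogenesis, which rose by 2.79 (adjusted p = 0.0121, but 0.0652 without sham library 1 and 0.071 without sham library 3). Srebf1 was 4.57, 5.40 and 6.06 in sham and 6.89, 8.45, 7.79 and 10.33 in treated libraries. These did not overlap, but the treated values spread widely, and the difference of 3.02 ± 0.69 had an adjusted p of 0.0763. Scd2, a second desaturase, gave 3.11 ± 0.70 (adjusted p = 0.069). Both passed the threshold with centred libraries. Srebf1 also passed without treated library 1 (adjusted p = 0.0423), and Scd2 without vehicle library 1 after SBR (adjusted p = 0.0369).

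For genes of cholesterol synthesis and uptake no call was made. Among 27 tested members limma called none, 3 had an unadjusted p under 0.05 on the higher side and 1 on the lower side, and the median was 0.07, turning to -0.21 without treated library 4 and also below 0 without sham library 1 or treated library 1. With library weights 1 member was called higher. Sqle, the squalene epoxidase, lay 0.92 ± 0.42 lower in treated libraries (adjusted p = 0.291), with 3.24, 2.88, 2.65 and 3.33 against 4.08, 3.78 and 3.98 in sham.

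**Figure D2:**
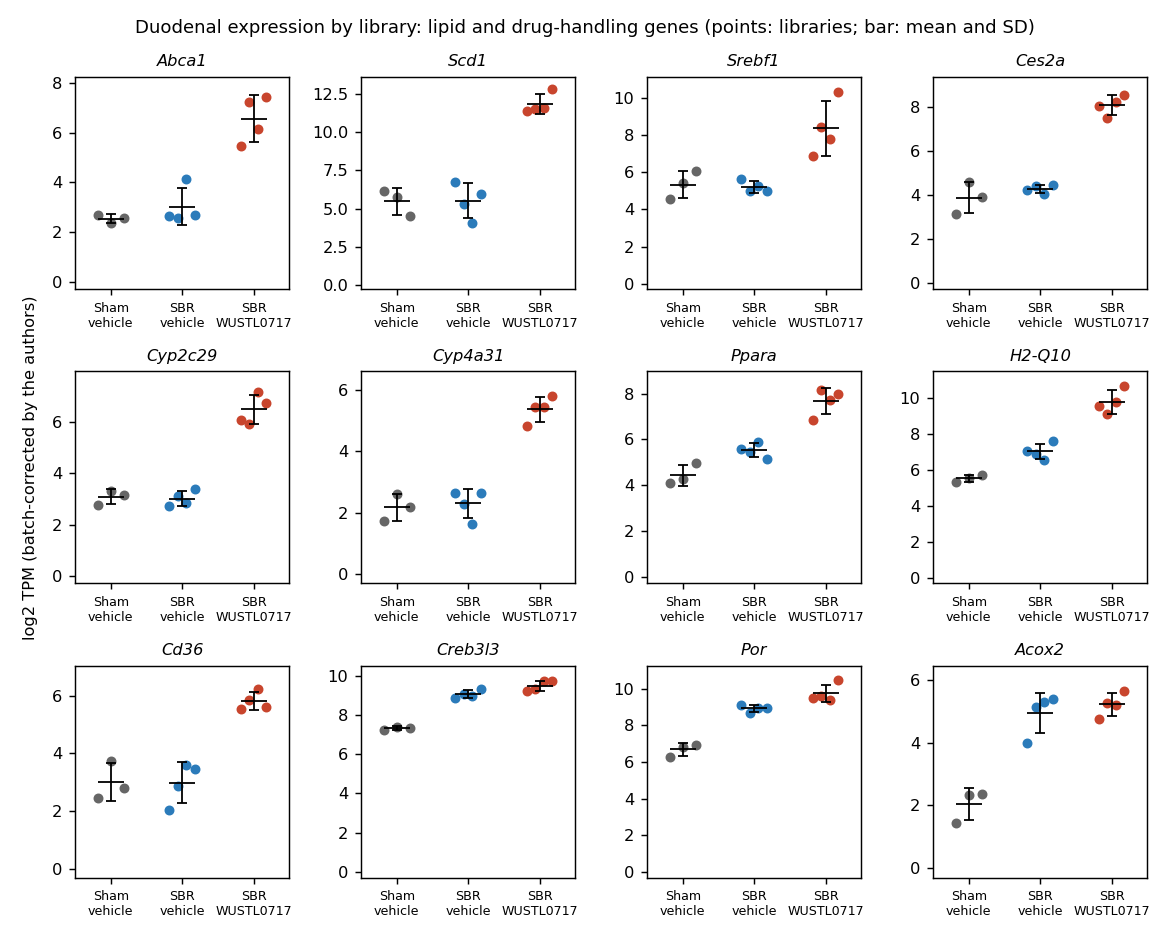
Values of 12 genes in log2 TPM (y axis) in each duodenal library of sham vehicle (grey, 3), SBR vehicle (blue, 4) and SBR WUSTL0717 (red, 4), with the mean and SD of each group as bars. In the panels of Scd1, Ces2a, Cyp2c29, Cyp4a31 and Cd36 the red points stand apart from grey and blue points that overlap, whereas for Creb3l3, Por and Acox2 the blue points lie well above the grey ones.

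Among genes of triglyceride synthesis and chylomicron assembly, all 21 tested members had positive differences, with a median of 1.98 on the log2 scale. Of these, 8 were called higher and none lower. In 15 the treated libraries lay above sham without overlap, which was so for 5.58% of all tested genes. Cd36, the fatty acid translocase, was 2.47, 3.73 and 2.81 in sham and 5.54, 5.84, 6.24 and 5.62 in treated libraries. The treated values were tightly grouped and 2.81 ± 0.46 above sham (adjusted p = 0.0165), and the resection step was -0.01. Creb3l3, a liver and gut transcription factor of lipoprotein genes, behaved differently. It was 7.24, 7.41 and 7.36 in sham, 8.87, 9.08, 8.99 and 9.35 in vehicle libraries after SBR, and 9.20, 9.34, 9.72 and 9.71 in treated libraries. Most of its rise of 2.16 ± 0.36 (adjusted p = 0.018) thus lay in the resection step of 1.74. Acsl5, an acyl-CoA synthetase, rose by 2.56 with a resection step of 2.38, and Fabp2, the intestinal fatty acid binding protein, rose by 3.45 with steps of 1.86 and 1.59.

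These calls were sensitive to single libraries. Cd36 was no longer called without sham library 1 or 3 or treated library 3, Creb3l3 without any 1 sham library or treated library 3 or 4, Acsl5 without sham library 1 or 3 or treated library 2, 3 or 4, and Fabp2 in 7 of 11 omissions. Creb3l3 was also not called with quantile normalization (1.60, adjusted p = 0.0633). Across the omissions 0 (without sham library 1 or 3 or treated library 3) to 6 members of the list were called, while its median stayed between 1.56 and 2.23. With the stomach genes in the model the list median was 1.78. Among 10 tested apolipoproteins limma called none, 4 had an unadjusted p under 0.05, all higher, and the median was 0.43 (0.18 without treated library 1, 0.72 without treated library 2, and 0.95 with the stomach genes in the model). With centred libraries 2 were called, and with library weights 1. Apoa1, the protein of high density lipoprotein, was 9.69, 12.31 and 11.64 in sham and 13.07, 13.50, 14.08 and 13.80 in treated libraries. The groups did not overlap, but the sham values ranged widely, and the difference of 2.40 ± 0.57 had an adjusted p of 0.0881. Apob, the scaffold of chylomicrons, overlapped between the groups (1.80 ± 0.80, adjusted p = 0.286).

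PPAR targets and enzymes of fatty acid oxidation gave 10 called genes of 29 tested, all higher, with a median of 1.96. Over the omissions of single libraries 4 to 10 members were called, with 4 without sham library 1 or 3 and fewer than 7 also without treated library 3 or 4. Another 13 members had an unadjusted p under 0.05 on the higher side and 1 on the lower side. Ppara itself (chr15:85734983-85802819), the receptor that directs this programme, was 4.10, 4.25 and 4.97 in sham and 6.87, 8.18, 7.71 and 7.99 in treated libraries. Vehicle libraries after SBR lay in between, at 5.15 to 5.90, and the total rise was 3.25 ± 0.43, or 9.51-fold (adjusted p = 0.00624). Cyp4a31, a fatty acid omega-hydroxylase, was 1.73, 2.62 and 2.18 in sham, 1.63 to 2.65 after SBR with vehicle and 4.81, 5.44, 5.43 and 5.80 in treated libraries. Its rise of 3.19 ± 0.40 thus lay almost wholly in the drug step (3.07 against 0.13). Acot1, a thioesterase that releases fatty acids from coenzyme A, rose by 3.45 ± 0.44 with a resection step of -0.05. Acaa1b, a peroxisomal thiolase, rose by 3.51 ± 0.47. The calls of these 4 genes held in all 11 omissions, at adjusted p of up to 0.0443. The letters AGGTCANAGGTCA, a repeat to which PPARs are known to bind, were in the windows of 0 of the 90 genes called higher and in 0.0639% of tested genes with a window, by the search used for Abca1. Cyp4a and Acot genes have close copies side by side in the genome, so that the division of reads among copies is uncertain. The same limit may hold for other gene families named below, such as the Ces2, Cyp2c, Ugt2b, Gstm and H2-Q genes.

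Enzymes of foreign compound metabolism were examined next. Ces2a (chr8:104734003-104741634), an intestinal carboxylesterase that splits ester drugs and neutral lipids, had the smallest p of all genes. It was 3.14, 4.59 and 3.92 in sham, 4.24, 4.39, 4.06 and 4.44 in vehicle libraries after SBR and 8.08, 7.51, 8.26 and 8.58 in treated libraries. The rise was 4.23 ± 0.43, or 18.7-fold (adjusted p = 0.00339), with a resection step of 0.40. Of 14 tested carboxylesterases 4 were called higher and none lower, with a median of 1.56, Ces1f, Ces2c and Ces2b being the others at 2.40, 2.37 and 1.58. Without sham library 1 or 3 or treated library 3 or 4, 1 carboxylesterase was called. Ces2b was not called in any of the 11 omissions, and Ces1f and Ces2c were called in 7 and 4 of them.

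Of 27 tested cytochrome P450 genes of families 2 and 3, 4 were called higher and none lower (2 without sham library 1 or 3), with a median of 1.32. Cyp2c29, an epoxygenase, was 2.75, 3.32 and 3.17 in sham and 6.09, 5.94, 7.18 and 6.76 in treated libraries, a rise of 3.42 ± 0.40 (adjusted p = 0.00427) that had no resection step (-0.07). Cyp2b10, the classic target of the constitutive androstane receptor, was 1.54, 2.92 and 2.72 in sham and 5.28, 5.49, 5.59 and 5.68 in treated libraries. Its rise of 3.11 ± 0.41 was divided into 0.90 and 2.22. Cyp2c66 rose by 2.20 and Cyp2c55 by 2.67, the former not called without sham library 1 or 3, and the latter called in 3 of 11 omissions. Por, the reductase that passes electrons to these enzymes, was 6.29, 6.84 and 6.94 in sham, 8.67 to 9.12 after SBR with vehicle and 9.51, 9.60, 9.40 and 10.45 in treated libraries. Here the resection step of 2.22 was the larger share of the total of 3.05 ± 0.41.

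Conjugating and epoxide enzymes gave 11 called genes of 47 tested, all higher, with a median of 1.45. In 36 of the 47 the treated libraries lay above sham without overlap, which was so for 5.58% of all tested genes. The number called was 2 without sham library 1 and 3 without sham library 3, and at most 7 without sham library 2 or treated library 1, 3 or 4. Ugt2b5, a glucuronosyltransferase, was 4.94, 5.32 and 4.37 in sham and 8.74, 8.46, 9.42 and 8.26 in treated libraries, which is a rise of 3.84 ± 0.44 (adjusted p = 0.00407). Gsta2, a glutathione transferase, went from 3.14, 3.53 and 2.96 in sham to 5.75, 5.75, 6.16 and 6.07 in treated libraries, a rise of 2.72 (adjusted p = 0.00624) with steps of 1.25 and 1.47 that did not pass on their own (adjusted p = 0.271 and 0.129). Aldh1a1, which oxidizes retinal to retinoic acid, rose by 3.84 ± 0.55 (adjusted p = 0.00877, but 0.0506 without sham library 1), and Gstm3 by 2.74 ± 0.43 (adjusted p = 0.0139, but 0.0506 without sham library 1 and 0.0742 without sham library 3). Among 19 tested antioxidant genes 3 were called higher and none lower (0 without sham library 1 or 3), with a median of 1.36. Gclm and Gclc, the subunits that make glutathione, rose by 2.83 ± 0.45 and 3.03 ± 0.58, with resection steps of 1.15 and 2.65. Gclc ranged from 5.88 to 8.26 in treated libraries. Sod1 rose by 2.35 (adjusted p = 0.0432). Srxn1 was 2.08 ± 0.44 higher (adjusted p = 0.0569), with a drug step of -0.06. Gclm was not called without sham library 1 or 3 or treated library 3, and Gclc and Sod1 were called in 4 and 2 of 11 omissions. The letters TGACNNNGC, the core to which NRF2 is known to bind, were in the windows of 13 of the 90 genes called higher (14.4%) and in 16.8% of tested genes with a window.

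**Figure D3:**
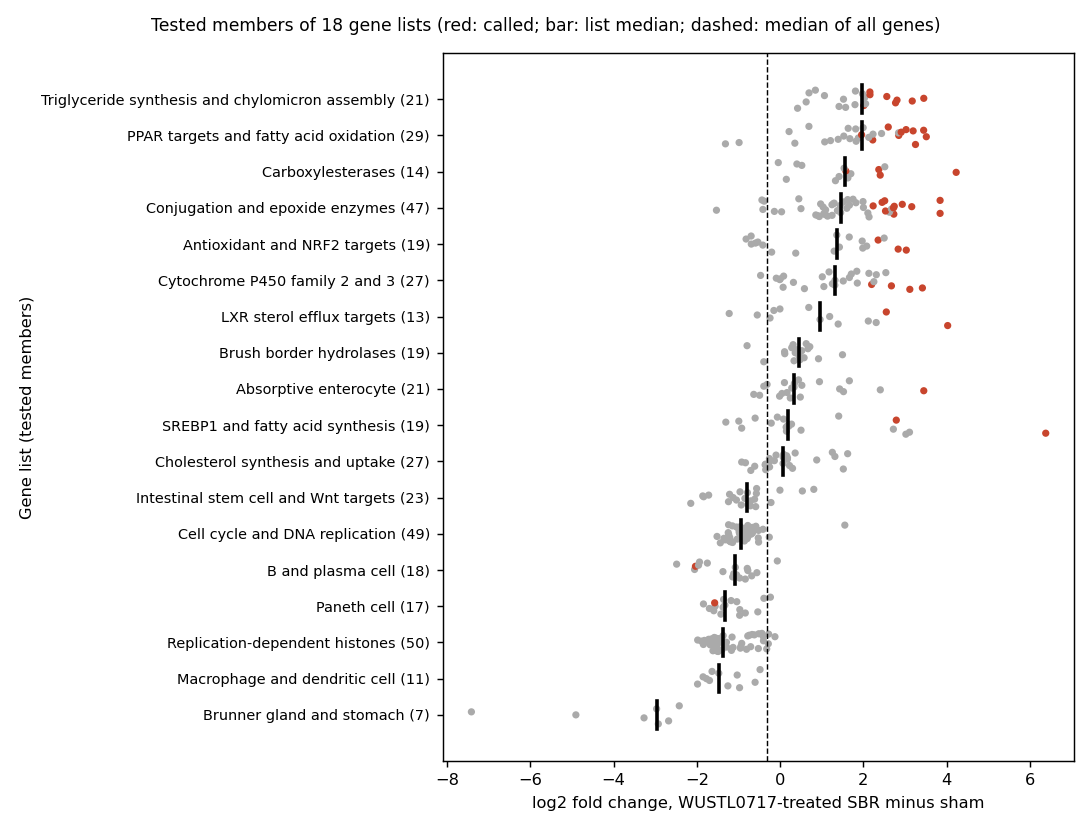
Tested members of 18 gene lists (y axis, number tested in brackets) by their log2 fold change of treated SBR minus sham (x axis). Red points are called genes, grey points are not, black bars are list medians and the dashed line is the median of all genes at -0.32. The triglyceride list has its median at 1.98 and the stomach and Brunner gland list at -2.97.

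Other genes with the smallest p-values came from outside these groups. H2-Q10 (chr17:35470089-35474563), a secreted class I molecule, was 5.35, 5.54 and 5.73 in sham, 6.59 to 7.62 after SBR with vehicle and 9.57, 9.10, 9.76 and 10.69 in treated libraries. The 3 groups did not overlap, and the rise was 4.24 ± 0.46, or 18.9-fold (adjusted p = 0.00339). It was the one called gene among 22 tested class I genes, whose median was -0.26 (0.10 with centred libraries). This median ranged from -0.58 without sham library 1 to 0.03 without sham library 3, and was above 0 without treated library 2 as well. Aldh3a2, the fatty aldehyde dehydrogenase, was 5.46, 6.24 and 5.55 in sham and 8.92, 9.15, 9.59 and 10.01 in treated libraries. Slc22a5, the carnitine importer, rose by 2.96 ± 0.39, and Hsd17b11, a lipid droplet dehydrogenase, by 3.13 ± 0.42, nearly all in the drug step (2.79). Cyp4b1, Tm4sf4 and Abhd6 (a monoacylglycerol lipase) rose by 3.43, 3.23 and 2.91, with resection steps of 2.31, 2.06 and 1.97.

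Acox2, the peroxisomal oxidase of branched fatty acids and bile acid precursors, had hardly any drug step. It was 1.45, 2.32 and 2.38 in sham, 3.98, 5.12, 5.28 and 5.39 after SBR with vehicle and 4.76, 5.27, 5.21 and 5.65 in treated libraries. Both resected groups lay above sham and overlapped with each other, so that 2.89 of the total of 3.17 ± 0.44 was the resection step. Of the 20 genes named for the smallest p on the higher side, 18 stayed called in all 11 omissions of single libraries. Abhd6 was not called without sham library 3, nor was Acox2 without sham library 1 (adjusted p = 0.0508 and 0.0506). Of all 121 calls, the unmoderated test of each gene kept 0 and a block by replicate number kept 1. With the stomach genes in the model 0 were kept.

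By itself, the drug step was called for 39 of the tested genes (0.258%), 38 higher and 1 lower. Library weights gave 85 calls for it and the unmoderated test 2. For the resection step limma called none, and 2426 genes had an unadjusted p under 0.05. Library weights gave 2497 calls for that step and the unmoderated test 1. Over the 113 higher genes, the drug step was the larger in 71 and the resection step in 42. The median resection step was 1.06 and the median drug step 1.67. In 81 of the 113 every treated library was also above every vehicle library after SBR, in 52 every vehicle library after SBR was above every sham library, and the resection step was negative in 16. These counts are for genes selected by the total, and the share over all tested genes was not computed for either step. The 2 steps share the vehicle libraries and add up to the total, so they are given side by side without a test.

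**Figure D4:**
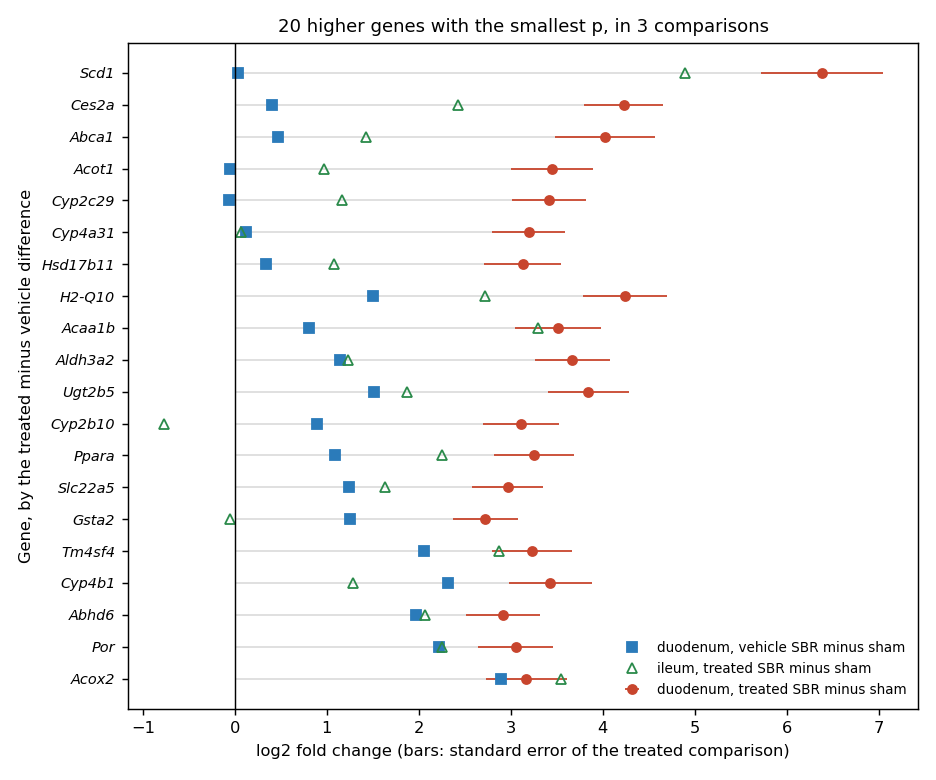
For the 20 higher genes with the smallest p (y axis), log2 fold changes (x axis) of treated SBR minus sham in duodenum (red, with standard error), of vehicle SBR minus sham in duodenum (blue) and of treated SBR minus sham in ileum (green). At Scd1 the blue square is at 0.04 and the red point at 6.38, at Acox2 the 2 are close together, and at Gsta2 and Cyp4a31 the green triangle is near 0.

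Genes of nutrient absorption were read against the 0.802% of all tested genes that were called. Of 19 tested brush border hydrolases limma called none, none had an unadjusted p under 0.05 in either direction, library weights gave none, and the median was 0.46 (0.24 without sham library 1, and 0.27 with the stomach genes in the model). Mineral absorption genes had 1 call of 16, Mt1, a metallothionein, which was 5.85, 5.35 and 6.11 in sham and 8.70, 9.94, 8.82 and 9.11 in treated libraries (a rise of 3.38, adjusted p = 0.0205, called in 5 of 11 omissions). Cybrd1, the duodenal ferric reductase, was 3.95, 4.01 and 3.70 in sham and 2.87, 2.86, 2.75 and 2.32 in treated libraries. It was lower in every treated library, by 1.19 ± 0.35, without passing the threshold (adjusted p = 0.169). Retinoid genes had 2 calls of 17, Aldh1a1 and Retsat, and the latter (2.12, adjusted p = 0.0472) was not called in any of the 11 omissions. The retinoid median was -0.26, and 9 of the 17 differences were below 0. At an unadjusted p under 0.05, 4 members were higher and 2 lower, and library weights called 3 higher and 2 lower. Among 11 bile acid genes Abcb1a, a drug efflux pump, was the one call. It was 2.53, 2.47 and 1.84 in sham and 4.20, 5.35, 4.34 and 4.88 in treated libraries, with a resection step of 2.17 in a total of 2.42 (adjusted p = 0.0142, but 0.0531 without sham library 1 and 0.0815 without sham library 3).

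On the lower side, 3 of the 7 named genes called lower belong to immunoglobulin loci. Ighv1-18, a heavy chain variable segment, was 4.37, 6.34 and 5.37 in sham, 2.88, 1.23, 3.80 and 3.44 after SBR with vehicle and 1.72, 1.94, 1.88 and 1.45 in treated libraries. Treated libraries were uniformly low, and the gene fell by 3.61 on the log2 scale with an SE of 0.60 (adjusted p = 0.0171). Ighj2 and Ighg2b fell by 2.37 and 2.03 (adjusted p = 0.0365 and 0.04). Among 18 tested B and plasma cell genes, which include Ighg2b, 1 was called lower and none higher. All 18 differences were negative, with a median of -1.10 (-0.82 with the stomach genes in the model, -0.73 with centred libraries). In 13 the treated libraries lay below sham without overlap, which was so for 12.8% of all tested genes. Igha, the constant region of the main gut antibody, was 8.66, 9.04 and 9.20 in sham and 7.07, 7.72, 6.27 and 6.60 in treated libraries. Its difference of -2.06 ± 0.49 did not pass (adjusted p = 0.0883). Both steps were negative for Igha (-1.09 and -0.97). Immunoglobulin variable segments such as Ighv1-18 have many similar copies, and counts over immunoglobulin loci are uncertain.

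Ang4, an antimicrobial ribonuclease of Paneth cells, was 2.64, 3.22 and 2.17 in sham, 0.62 to 1.20 after SBR with vehicle and 1.16, 1.14, 1.38 and 0.72 in treated libraries. It fell by 1.57 on the log2 scale (adjusted p = 0.0365), all of it in the resection step of -1.71. It was the one call among 17 tested Paneth cell genes, all of which had negative differences, with a median of -1.33 and 12 at an unadjusted p under 0.05. Of all tested genes, 12.0% had such a p on the lower side. Mmp7, the protease that activates mouse defensins, was -1.84 ± 0.41 (adjusted p = 0.0658) and Defa23 -1.59 ± 0.49 (adjusted p = 0.185). With the stomach genes in the model the Paneth list had a median of -1.35. The antimicrobial lectins Reg3b and Reg3g showed a different split. Reg3b was 5.84, 6.31 and 6.03 in sham, 6.34, 6.15, 6.65 and 6.77 after SBR with vehicle and 3.89, 4.73, 4.60 and 4.34 in treated libraries. Treated libraries were the low ones, at a total of -1.68 ± 0.37 (adjusted p = 0.0689) with a drug step of -2.09 that passed on its own (adjusted p = 0.0273), the one lower call among the 39 genes called in that step. Reg3g gave -1.35 ± 0.35 (adjusted p = 0.114) with a drug step of -1.71 (adjusted p = 0.0576). Among the 15 tested antimicrobial genes limma called none, 7 had an unadjusted p under 0.05 on the lower side, and library weights gave 4.

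The remaining genes called lower were Col4a5, a basement membrane collagen (-1.97), Pdzk1ip1, a small membrane protein (-2.52), Fam214a (-2.62) and an unnamed gene model. Col4a5 was 2.88, 2.52 and 2.78 in sham, 0.34 to 1.80 after SBR with vehicle and 1.26, 0.92, 0.27 and 0.60 in treated libraries, most of the fall being in the resection step (-1.52). With the stomach genes in the model its difference was -1.26 (adjusted p = 0.382). Ighv1-18 was called in 7 of 11 omissions (not without sham library 2 or 3 or treated library 3 or 4), Col4a5 in 4, Ighj2 and Ighg2b in 3 each, and Ang4, Pdzk1ip1 and Fam214a in 2 each. Ighj2 and Ang4 were also not called with centred libraries or quantile normalization.

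**Figure D5:**
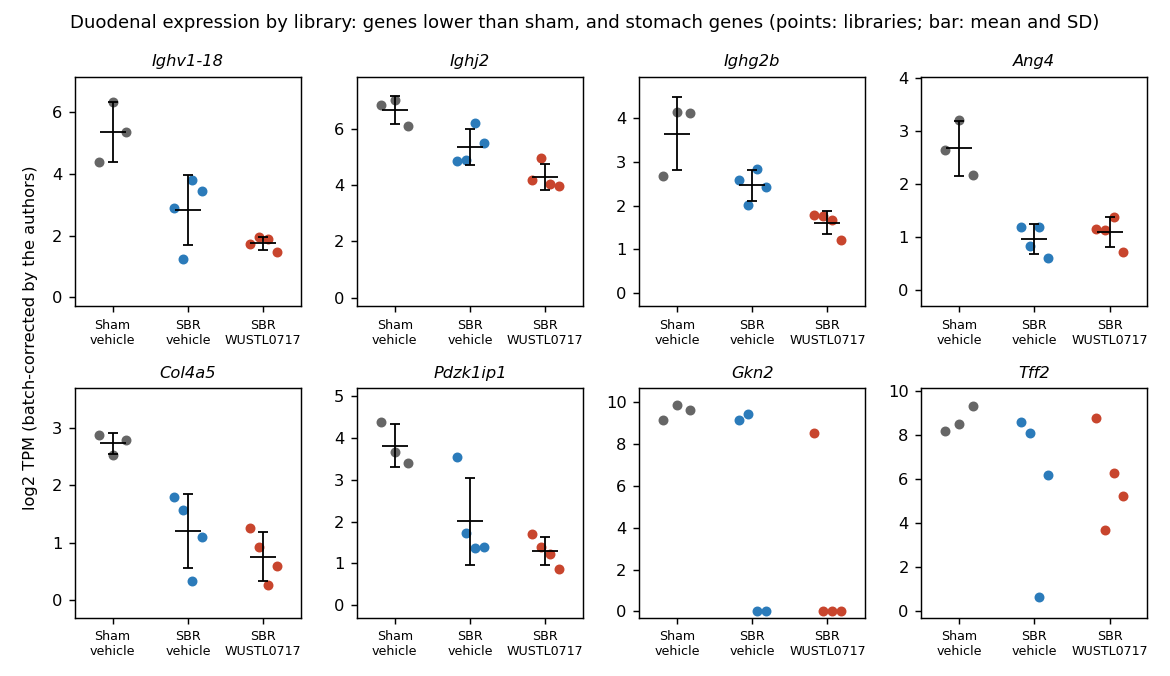
Values of 8 genes in log2 TPM (y axis) in each duodenal library of sham vehicle (grey, 3), SBR vehicle (blue, 4) and SBR WUSTL0717 (red, 4), with mean and SD as bars except for the stomach genes Gkn2 and Tff2. The 6 genes called lower are low in treated libraries, and Gkn2 is listed at 0 in 5 of the 8 resected libraries.

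Proliferation genes had negative medians, but no gene passed adjustment in the main fit. Of all tested genes, 12.0% had an unadjusted p under 0.05 on the lower side. Of 50 tested replication-dependent histone genes, whose transcripts are made in S phase, limma called none, yet all 50 differences were negative, 31 had an unadjusted p under 0.05 and the median was -1.38. With library weights 14 were called lower. H3c1 was 4.87, 4.89 and 5.75 in sham, 4.70, 3.43, 2.57 and 2.82 after SBR with vehicle and 3.98, 3.00, 3.41 and 3.05 in treated libraries, a difference of -1.81 ± 0.52 (adjusted p = 0.158) with no drug step (-0.02). Of 49 tested cell cycle genes limma called none, 29 had an unadjusted p under 0.05 on the lower side and 1 on the higher side, and the median was -0.94. Under library weights 13 were called lower and 1 higher. Mki67, the proliferation marker, was 3.64, 3.54 and 3.37 in sham and 2.59, 2.20, 2.50 and 1.04 in treated libraries. The gene with an unadjusted p under 0.05 on the higher side was Cdkn1a, the cell cycle inhibitor p21. It gave 1.55 ± 0.42 (adjusted p = 0.132, and 0.0436 with centred libraries) with a resection step of 1.35. With the mean of Gkn1, Gkn2 and Tff1 in the model the histone median was -0.30, the cell cycle median -0.22 and the median of 85 cytosolic ribosomal protein genes 0.03 (-1.07 without it, and -0.71 without treated library 4), while the median of all tested genes went from -0.32 to -0.02. The covariate was high in all 3 sham libraries and varied within both resected groups, so it was partly confounded with the groups but could be fitted.

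Stem cell and Wnt target genes (23 tested) had no call by limma, 8 members at an unadjusted p under 0.05, all lower, and a median of -0.79 (-0.25 with the stomach genes in the model, and 7 called lower with library weights). Prom1 was 4.14, 4.26 and 4.07 in sham and 3.29, 2.09, 2.22 and 1.61 in treated libraries. Every treated library was below every sham library, with a difference of -1.86 ± 0.56 (adjusted p = 0.175), which was -0.60 with the stomach genes in the model. Macrophage and dendritic cell genes (11 tested) also had no call, 7 at an unadjusted p under 0.05, all lower, a median of -1.47 (-0.98 with the stomach genes in the model) and 2 calls with library weights. Csf1r, the receptor of the macrophage growth factor, was 4.42, 5.94 and 6.89 in sham and 3.78, 3.95, 3.69 and 3.65 in treated libraries. The treated libraries were alike while the sham libraries were spread, and the difference was -1.98 ± 0.67 (adjusted p = 0.208).

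The same treatment contrast in the ileum was set beside the duodenum, with the difference between regions tested in 1 fit over the 22 intestinal libraries. In the ileum 262 of 15772 genes were called higher (1.66%). Of the duodenal higher genes, 110 had an ileal value, with a median of 1.28, and 32 were called higher in the ileum as well, which is 29.1% of those 110 and 12.2% of the ileal higher genes. The difference between regions was called for 48 of 15923 genes (0.301%), 31 with the more positive value in the duodenum and 17 with the more positive value in the ileum, and 15 of the 113 duodenal higher genes were among the 48. Their ileal log2 fold changes lay between -0.98 and 1.23. Gsta2 rose by 2.72 in the duodenum and was at -0.06 in the ileum, a difference of 2.78 ± 0.36 (adjusted p = 0.000556). Cyp4a31 gave 3.19 and 0.07 (difference 3.12 ± 0.40, adjusted p = 0.000556), and both calls held in all 22 omissions of single libraries. The 3 ileal sham libraries held 1 identical value for Cyp4a31 (SD 0), as low values in this table can, so its ileal level may lie at the floor of the measurement. Gstm3 and Cyp2b10 gave differences of 3.59 and 3.89 (adjusted p = 0.0118 and 0.0418), and Acot1 and Aldh3a2 of 2.48 and 2.44 (adjusted p = 0.0476 and 0.0473). Gstm3 was not called without duodenal sham library 3 or ileal sham library 1 or 2, and Cyp2b10, Acot1 and Aldh3a2 were called in 10, 5 and 4 of the 22 omissions. For Abca1, with 4.02 in the duodenum and 1.43 in the ileum, the difference of 2.60 was not called (adjusted p = 0.106). Scd1 (6.38 and 4.89), Acaa1b (3.51 and 3.30) and Acox2 (3.17 and 3.55) were not called different either, with adjusted p = 0.431, 0.911 and 0.788. Which intestinal libraries came from the same mouse is not given in the labels.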

How the data were processed

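Total RNA depleted of ribosomal RNA was sequenced from 40 mouse libraries, and the 22 intestinal ones are used here. The authors aligned reads with STAR 2.7.9a to the Ensembl GRCm38 genome, counted uniquely aligned reads with featureCounts 2.0.3, and deposited log2 TPM values after ComBat correction. The labels put all intestinal libraries in batch 1 and all liver libraries in batch 2, and the methods speak of effects between experimental groups. In the table, 99.4% of genes had liver and intestinal means within 1 log2 unit, as after a correction between the labelled batches, so that levels cannot be compared between liver and intestine. Treated and sham duodenal means were that close for 82.2% of genes, and those group means had not been made equal. The pseudocount behind the log2 values is not given in the sources used here, the depth of each library is unknown, and low values can be shifted by the correction (the table runs down to -1.69). No count test was therefore run. Fold changes and summed TPM are those of the corrected values, and how far the correction changed the size of differences is unknown. The header names stand 1 field off the values, so columns were read by field number.

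Genes with a mean of at least 1 were fitted with limma 3.58.1 in R 4.3.3 (moderated test with variance trend) over the 11 duodenal libraries, and the difference between duodenum and ileum over the 22. Benjamini-Hochberg adjusted p under 0.05 was called, two-sided. SE comes from this fit. The study's own unpaired test of each gene was an alternative, beside other filters (none, or a mean of 3), pseudocounts (5 and 0.1, taking 1 as the deposited one), centring, quantile normalization, no trend, library weights, the compared groups alone, a replicate block, a fold threshold of 2 and omission of each library. On simulated data, 80 of 200 genes changed by 2 log2 units among 15093 were recovered in treated duodenum against sham (40%), with 2 false calls. For the difference between duodenum and ileum, 38 of 200 were recovered (19%), with 1 false call. The simulated noise was normal and independent between genes, without the library-wide shifts or the stomach signature of these libraries. The false calls there therefore do not measure those in the real data.

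Named genes were the 20 higher and the called lower genes with the smallest p, at most 4 per list, Abca1, Srebf1 and Scd1, and marker genes; gene models without a name were left out. The comparison and the 49 lists were chosen with earlier results of these data known. Gene positions are from a GENCODE annotation of GRCm38 and promoters from RefSeq (GRCm38.p6). Figures used Python 3.11.15 and matplotlib 3.10.9. Some items are not reported here.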

Additional observations from a re-analysis of the deposited data

Results flagged for a closer look

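Of 176 groups of 4 duodenal libraries examined for the named genes, 7 held a library separated from the other 3 by a gap that is large for the range of the group. Chance alone gives such gaps in about 5% of groups. In vehicle libraries after SBR, Abca1 was 4.12 in library 3 against 2.56 to 2.70 in the others. Library 1 of that group was high for Pdzk1ip1 (3.54 against 1.37 to 1.72) and low for Gsta2 (3.96 against 4.57 to 4.69). Treated library 4 was high for Scd1 (12.83 against 11.42 to 11.58) and Acaa1b (11.62 against 10.45 to 10.60), and low for the histone genes H2bc9 (0.91 against 1.82 to 2.00) and H2bc15 (2.33 against 3.77 to 3.99).

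For 6 named genes the treated effect differed between duodenum and ileum in the limma test of the difference. The duodenal minus ileal log2 fold change was 3.12 for Cyp4a31, 2.78 for Gsta2, 3.59 for Gstm3, 3.89 for Cyp2b10, 2.48 for Acot1 and 2.44 for Aldh3a2.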

How the results depend on the processing

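The number of genes called in treated duodenum against sham, 121, was 393 with centred libraries, 248 with quantile normalization, 2 with the unmoderated test, 1124 with library weights (364 higher, 760 lower), 38 with the compared groups alone, 1885 at an unadjusted p under 0.05 with a fold of at least 2 (641 higher, 1244 lower), and 0 with the stomach genes as a covariate. It ranged from 22 (without sham library 3) to 127 over the omissions of single libraries, and was 24 without sham library 1. For the difference between duodenum and ileum, 48 calls became 28 with pseudocount 0.1, 158 with centred libraries, 92 with quantile normalization, 384 with library weights, 13 with the compared groups alone and 1962 at an unadjusted p under 0.05 with a fold of at least 2, and ranged from 8 (without duodenal sham library 3) to 95 (without treated library 1) over omissions. With the replicate number as a block, 1 and 15 genes were called. Deviations of same-numbered sham and treated libraries correlated between -0.30 and 0.33 over 3 pairs. Those of same-numbered vehicle and treated libraries after SBR correlated between -0.05 and 0.31. So few pairs cannot decide whether same-numbered libraries share more than a number. Of 2092 values of named genes under alternatives, 332 lost the call, 109 gained one and 0 changed direction. The cause of these shifts was not tested. With unknown depth no counting interval can be given, and all 3 sham libraries are high in Gkn1, Gkn2 and Tff1, so sham without them cannot be examined.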

Other observations

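Some other lists stood off the median of all genes (-0.32) without a call by limma. The 79 nuclear oxidative phosphorylation subunits had a median of 0.44 (0.83 with the stomach genes in the model, and from 0.16 without treated library 3 to 0.88 without sham library 2, with moves of over 1.5 times also without sham library 1 or 3 or treated library 4), with 2 members at an unadjusted p under 0.05, both higher, and no call with library weights. The 42 collagen, laminin and matrix genes had a median of -0.76 (-0.37 with the stomach genes in the model, -0.39 with centred libraries and -0.45 without sham library 3), with 10 at an unadjusted p under 0.05 on the lower side and 1 on the higher side, and library weights gave 3 lower and 1 higher call. The 15 mitochondrially encoded genes had a median of 1.08 (1.45 with centred libraries, 0.26 with the stomach genes in the model, and from 0.13 without treated library 2 to 1.59 without sham library 2, with a move of over 1.5 times also without sham library 3), with no member at an unadjusted p under 0.05 and no call with library weights. Their mean level was 6.71 to 9.26 log2 TPM in sham and 7.58 to 11.1 in treated libraries, which overlap. Genes at or above 1 log2 TPM numbered 14805 to 15169 in sham and 14041 to 14819 in treated libraries. The part of these library values in the results was not tested. For 9 MHC class II genes the median resection step was 0.70 and the median drug step -1.46, with a total of -0.47 (-0.84 without treated library 3, and -0.26 with the stomach genes in the model), no member at an unadjusted p under 0.05 and no call with library weights.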
